A study of Vitis vinifera with 36 samples.

Results

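Ripening of ‘Muscat Hamburg’ grapes in the summer season was followed from E-L 35, the onset of veraison, to E-L 36, when veraison was complete. The libraries were taken by their labels (cultivar ‘Muscat Hamburg’, crop summer), namely 3 of E-L 36 and 3 of E-L 35, and make 6 of the 36 libraries of the series. The other 30 come from summer berries of the same variety at harvest (E-L 38), from its winter season berries and from the white variety ‘Victoria’ in both seasons, with 3 libraries in each of 12 groups.

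‘Muscat Hamburg’ is a black table grape and ‘Victoria’ a white one. All vines stood on SO4 rootstock under rain shelters in southern China, and all gave 2 crops a year, forced with hydrogen cyanamide: the summer crop, which flowers in spring, and the winter crop, forced again in August. RNA was extracted from whole berries without seeds, and each replicate was a pool of berries from many vines. The p-values thus rest on the spread between such pools, estimated over all 36 libraries together and not from the 6 libraries compared alone. Skin, where a black grape makes most of its pigment, and flesh were not separated. A lower value in such bulk samples cannot be told apart as fewer cells of a type or less RNA per cell.

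Veraison is the turn at which a hard, green and acid berry starts to soften, to gather sugar and, in black varieties, to colour. Its pigments are flavonoids, made from phenylalanine through a shared upstream route that ends in dihydroflavonols. From there the route branches to flavonols, which screen ultraviolet light, to flavanols and proanthocyanidins (condensed tannins), laid down mainly before veraison, and to the anthocyanins of coloured skins. MYB and bHLH transcription factors with a WD-repeat partner set the activity of each branch.

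Depth differed between the stages. The libraries held 9855074 to 11139820 estimated read counts at E-L 36, against 13525268 to 14008346 at E-L 35, and listed 21184 to 21434 genes at E-L 36 and 22451 to 22662 at E-L 35. After every library was thinned to 9855065 counts, 21137, 21106 and 21366 genes still had a count at E-L 36, against 22096, 21962 and 21907 at E-L 35, and the ranges did not overlap. The tissue label could not be checked, because no description of other genes was available to match markers of seed, vascular or green tissue. Pigment genes were looked at instead, which bear on the variety label. VviMYBA1, the anthocyanin activator that white grapes typically lack in working form, had 11.85 to 18.59 FPKM at E-L 36 in ‘Muscat Hamburg’ and at most 0.63 FPKM in any ‘Victoria’ summer library of E-L 36 or E-L 35. VviAOMT had 8.08 to 13.3 FPKM at E-L 36 in ‘Muscat Hamburg’ and at most 0.16 FPKM in those libraries. VviUFGT was less distinct, with 28.4 to 29.94 FPKM at E-L 36 in ‘Muscat Hamburg’. In ‘Victoria’ summer berries it had 6.63 to 12.99 FPKM at E-L 36 and 9.12 to 11.86 at E-L 35. FPKM is a read number scaled to the transcript's length and the library's depth.

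The 3 libraries of E-L 36 were much less alike than those of E-L 35. The biological coefficient of variation, edgeR's measure of the spread between replicates beyond counting noise, was 0.26 among the libraries of E-L 36 and 0.0592 among those of E-L 35. Replicate 1 of E-L 36 stood apart, with a chi-square per gene of 57.1 against replicate 2 and 31.1 against replicate 3, where replicates 2 and 3 gave 12.7 and the pairs of E-L 35 gave 2.51 to 7. A chi-square per gene near 1 would mean no more than counting noise, so no pair was counted as a single sample. Counts of changed genes are therefore also given without replicate 1 of E-L 36. In ‘Victoria’ summer berries, used for comparison below, replicate 1 of E-L 36 likewise stood apart, with a chi-square per gene of 57.7 and 55.3 against the others and 3.5 between those.

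At E-L 36, 760 genes were upregulated and 943 downregulated relative to E-L 35, of 19736 tested, which is 3.85% and 4.78%. A gene was called when its adjusted p was at most 0.05 (the quasi-likelihood test of edgeR, adjusted after Benjamini and Hochberg) and it changed at least 2-fold. Changes below are on the log2 scale with their standard error (SE). Without the fold condition 2379 genes were higher and 2195 lower, so most of the changes that passed the test were below 2-fold. Changes of at least 4-fold were found for 233 of the upregulated and 312 of the downregulated genes, and of at least 8-fold for 82 and 119. The median log2 change over all genes was 0.00.

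Without replicate 1 of E-L 36 there were 473 upregulated and 646 downregulated genes, among them 415 of the 760 and 557 of the 943. A fit to the 6 libraries compared alone gave 548 upregulated and 737 downregulated genes. Scaling by library size alone, which moved the median of all genes to -0.13, gave 590 upregulated and 1207 downregulated genes, so that 32.8% of the calls were higher at E-L 36 instead of 44.6%. With limma on log2(FPKM + 0.1) the numbers were 477 and 1255 (27.5% higher, median -0.14). The share higher at E-L 36 was 44.0% with RLE size factors, another scaling, 45.2% with DESeq2 and 40.9% with limma-voom and sample weights. The balance between the directions thus shifted most where libraries were scaled by size alone or FPKM was used. The limma fit on FPKM also differs in its test, so its shift cannot be put down to scaling alone.

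The upregulated genes took 11.2%, 8.62% and 9.6% of all counts in the libraries of E-L 36, against 3.91%, 4.22% and 4.44% at E-L 35. At harvest they held 10.2% to 10.3%. The downregulated genes took 1.01%, 1.82% and 1.41% of the counts at E-L 36, against 5.76%, 5.24% and 4.7% at E-L 35, and 0.813% to 1.07% at harvest. In both sets the share in replicate 1 of E-L 36 lay farthest from E-L 35, and the shares of the stages did not overlap, which the choice of these genes by this contrast fixes in part.

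Downregulated genes were weakly expressed. Their median FPKM over the 6 libraries was 1.96, against 8.56 for the upregulated genes and 6.35 for genes that were not called. All 3 libraries of E-L 36 held 3 counts or fewer for 137 of the downregulated genes, and all 3 of E-L 35 for 49 of the upregulated ones. The fitted change of such genes depends on the prior count of the fit. The median transcript length was 1460 bases for the upregulated genes, 1770 for the downregulated and 1780 for the others.

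**Figure D1:**
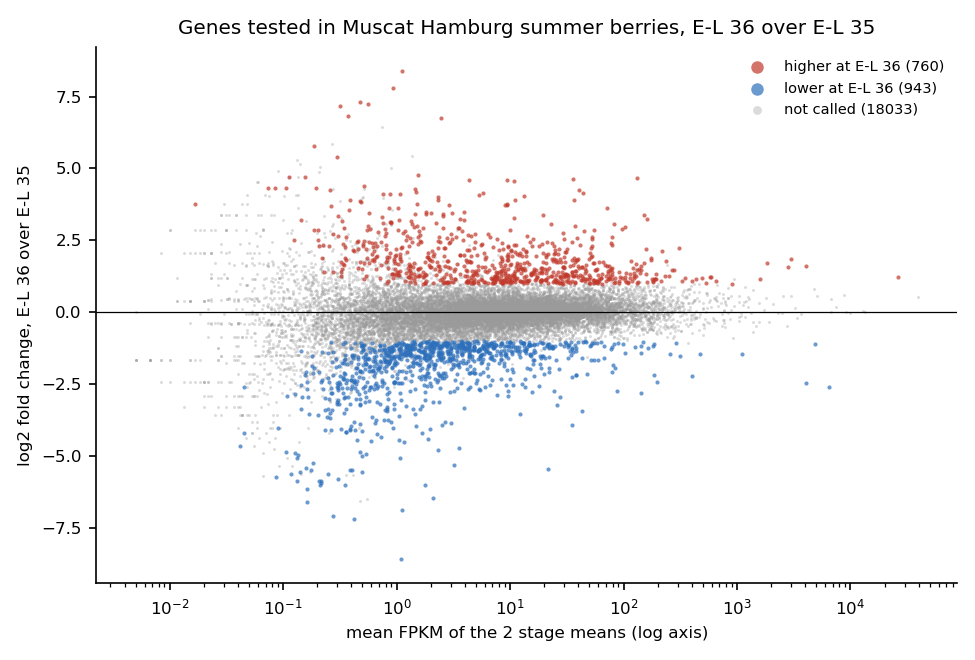
Each point is a gene of ‘Muscat Hamburg’ summer berries, with the mean FPKM of both stages on a log axis and the log2 change of E-L 36 over E-L 35 on the vertical axis. The 760 upregulated genes (red) reach further into the high FPKM range than the 943 downregulated genes (blue), and 18033 genes (grey) were not called.

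The largest changes were taken from called genes with at least 5 FPKM in the higher stage, stages that did not overlap and the lower stage not all at 3 counts or fewer. Of these genes only identifiers are known here. VIT_214s0128g00570 had 196.65, 221.13 and 332.0 FPKM at E-L 36, against 10.57, 9.37 and 12.36 at E-L 35 (log2 change 4.66 ± 1.21 SE, adjusted p = 0.00595, edgeR). Its neighbour by identifier, VIT_214s0128g00620, had 53.76, 65.13 and 88.49 FPKM at E-L 36, against 2.97, 2.82 and 3.14 at E-L 35 (4.65 ± 1.18 SE, adjusted p = 0.00484, edgeR). Both were high in every E-L 36 library. Counts of VIT_214s0128g00570 were not whole numbers in any of the 6 libraries, and which of its reads match more than 1 transcript is not known.

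Downregulated furthest was VIT_204s0008g05640, with 0.0, 2.2 and 0.28 FPKM at E-L 36, against 56.15, 46.14 and 24.21 at E-L 35 (log2 change -5.45 ± 0.62 SE, adjusted p = 5.38e-07, edgeR). VIT_210s0042g00960 followed, with 0.35, 0.09 and 0.29 FPKM at E-L 36, against 8.12, 6.61 and 5.73 at E-L 35 (-4.71 ± 0.47 SE, adjusted p = 1.52e-07, edgeR). In both, every library of E-L 36 lay far below every library of E-L 35, where the pick itself required that the stages not overlap. Without replicate 2 of E-L 36 the log2 change of VIT_204s0008g05640 was -7.93. At harvest they stood at 0.04 ± 0.0693 and 1.05 ± 0.291 FPKM (SD, n = 3).

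The flavonoid pathway was read from 64 genes of the study. Its structural genes were picked for season differences in these same samples and its regulators as known regulators of the pathway, so their behaviour is no independent evidence on the pathway. All 64 passed the filter on low counts. Of these, 5 were upregulated and 8 downregulated at E-L 36, beside 3.85% and 4.78% of all genes, and the median log2 change was 0.00, as for all genes. The FPKM of all 3 E-L 36 libraries lay above all 3 of E-L 35 for 13 genes and below for 15, where 12.2% and 28.9% of all tested genes did so. The 5 upregulated genes were 4 upstream genes and 3AT, and the 8 downregulated ones were 1 F3'H gene, 3 DFR genes and 4 regulators. Without replicate 1 of E-L 36, 4 were upregulated and 3 downregulated.

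**Figure D2:**
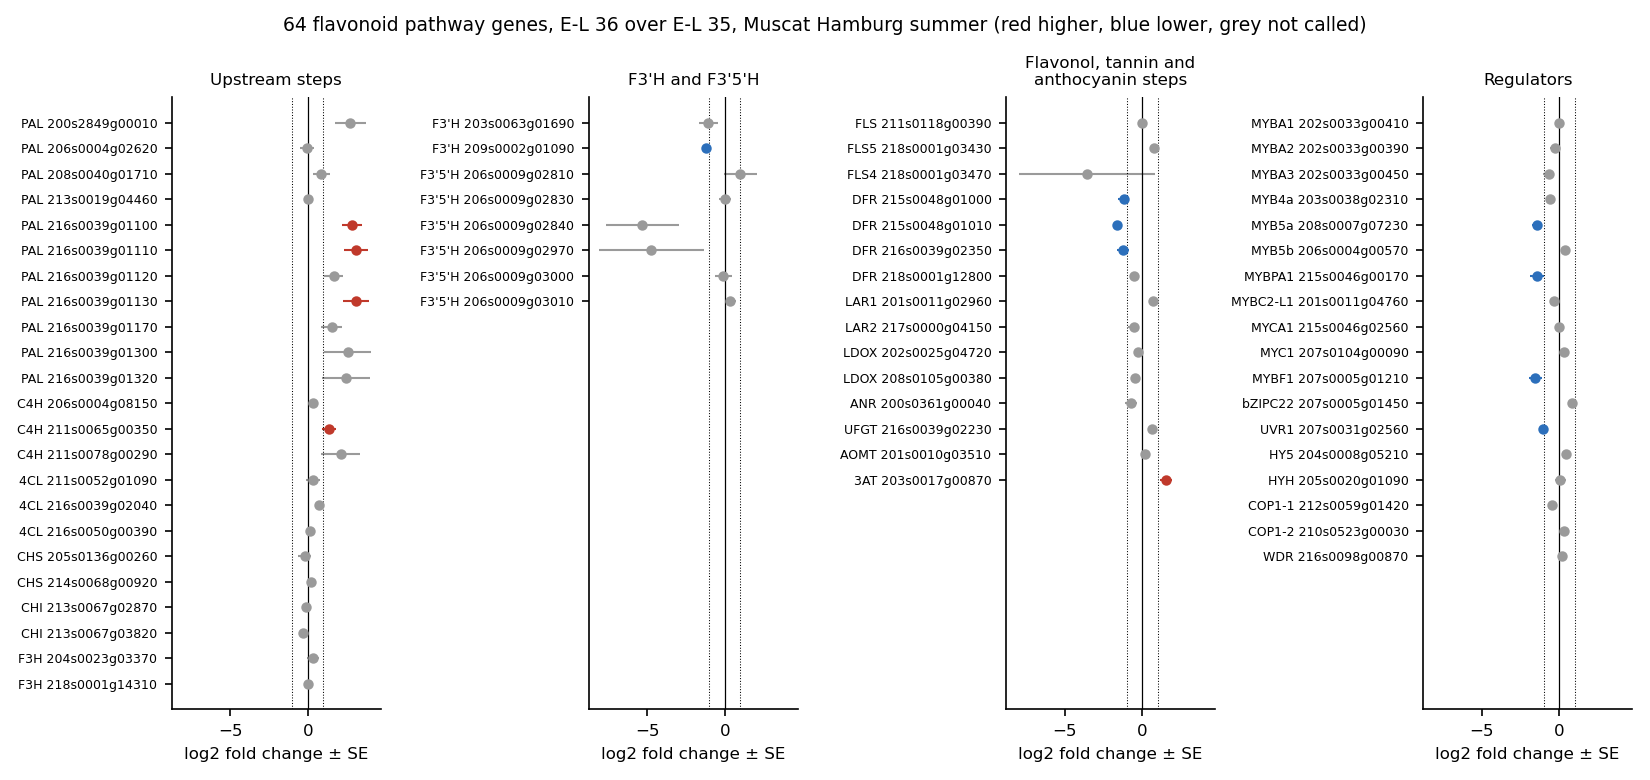
The log2 change of E-L 36 over E-L 35 with its standard error is shown for each of the 64 genes in 4 groups, with dotted lines at a 2-fold change. The upregulated genes (red) are 3 PAL copies, 1 C4H gene and 3AT, and the 8 downregulated ones (blue) are a F3'H gene, 3 DFR genes and 4 regulators.

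Among the 23 upstream genes, 4 were upregulated and 0 downregulated, with a median log2 change of 0.72. With p unadjusted and under 0.05, the higher genes numbered 8 and the lower ones 0, beside 18.0% and 17.0% of all genes by the same measure. With the gene whose E-L 35 libraries held 3 counts or fewer set to its bound, the median was 0.57. PAL, phenylalanine ammonia-lyase, takes phenylalanine into the pathway, and C4H and 4CL are the steps after it. All 4 upregulated genes lay in PAL and C4H.

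VviPAL (VIT_216s0039g01100) had 8.89, 6.14 and 4.82 FPKM at E-L 36, against 1.33, 1.31 and 0.35 at E-L 35. The stages did not overlap, and the log2 change was 2.84 ± 0.64 SE (adjusted p = 0.00167, edgeR). A second copy, VIT_216s0039g01110, had 1.9, 1.6 and 1.27 FPKM at E-L 36, against 0.26, 0.1 and 0.25 at E-L 35 (3.11 ± 0.78 SE, adjusted p = 0.00435, edgeR). VIT_216s0039g01130 had 2.0, 1.28 and 1.36 FPKM at E-L 36, against 0.18, 0.13 and 0.24 at E-L 35 (3.13 ± 0.83 SE, adjusted p = 0.007, edgeR). These 3 genes stayed past the threshold whichever of the 6 libraries was left out. They are low genes, and VIT_216s0039g01130 no longer passed with all libraries thinned to the lowest total of the series (2.64, adjusted p = 0.086, edgeR) or with limma on log2(FPKM + 1) (1.1 on that scale, adjusted p = 0.0912), where VIT_216s0039g01110 was also lost (1.1, adjusted p = 0.0646).

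All 7 PAL copies with the stem VIT_216s0039 had a positive log2 change, with a median of 2.58, and 3 were upregulated, beside 3.85% of all genes. For 5 of them every library of E-L 36 lay above E-L 35, as for 12.2% of all genes. In VIT_216s0039g01300 and VIT_216s0039g01320 the stages overlapped, with replicate 2 of E-L 36 at 0.0 FPKM in both. Every one of the 7 had counts that were not whole numbers, so reads may be split among copies and their single values are uncertain. Their summed level is less open to such a split. It was 23.6, 12.7 and 12.2 FPKM at E-L 36, against 3.05, 4.47 and 2.42 at E-L 35, with replicate 1 of E-L 36 the highest and no overlap. At harvest the sum was 9.16 ± 2.64 FPKM (SD, n = 3).

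Other PAL genes did not pass the threshold, some of them narrowly. VIT_200s2849g00010 had 3.64, 2.57 and 1.93 FPKM at E-L 36, against 0.81, 0.49 and 0.0 at E-L 35 (log2 change 2.75 ± 1.02 SE, adjusted p = 0.0508, edgeR, and 0.0128 with DESeq2), and VIT_216s0039g01120 gave 1.68 ± 0.62 SE (adjusted p = 0.0513, edgeR, and 0.0175 with DESeq2). VIT_216s0039g01170 gave 1.55 ± 0.67 SE (adjusted p = 0.0955, edgeR, and 0.0362 with DESeq2). Further from the threshold was VIT_208s0040g01710, at 3.5, 3.94 and 2.76 FPKM at E-L 36, against 2.3, 2.05 and 1.77 at E-L 35. Its stages did not overlap (0.86, adjusted p = 0.269, edgeR).

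The 2 PAL genes with the highest level at E-L 35 did not follow. VIT_213s0019g04460 had 12.81, 15.49 and 10.15 FPKM at E-L 36, against 14.92, 14.29 and 12.77 at E-L 35 (log2 change 0.00 ± 0.26 SE, adjusted p = 0.999, edgeR). VIT_206s0004g02620 had 3.19, 13.57 and 7.21 FPKM at E-L 36, against 7.33, 9.26 and 10.35 at E-L 35 (-0.03 ± 0.44 SE, adjusted p = 0.972, edgeR). In both the stages overlapped. Summed over all 11 PAL genes, the level was 43.1 ± 7.69 FPKM at E-L 36, 28.8 ± 1.65 at E-L 35 and 56.3 ± 3.34 at harvest (SD, n = 3 each).

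The upregulated C4H gene rested on a single library. VIT_211s0065g00350 had 20.89, 4.85 and 9.79 FPKM at E-L 36, against 4.35, 4.88 and 5.77 at E-L 35, and replicate 2 of E-L 36 lay within the range of E-L 35. Its log2 change was 1.36 ± 0.44 SE (adjusted p = 0.0238, edgeR) and 0.66 without replicate 1 of E-L 36 (adjusted p = 0.353, edgeR). It was also lost without replicate 1 of E-L 35 (1.26) or replicate 2 of E-L 35 (1.36). The main C4H gene, VIT_206s0004g08150, had 13.12, 15.89 and 12.2 FPKM at E-L 36, against 12.4, 12.42 and 11.17 at E-L 35 (0.32, adjusted p = 0.381, edgeR).

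From 4CL on, no upstream gene passed the threshold in either direction. The nearest was Vvi4CL (VIT_216s0039g02040), with 4.35, 6.14 and 3.65 FPKM at E-L 36, against 2.95, 3.01 and 3.38 at E-L 35, which passed the test below 2-fold (log2 change 0.72, adjusted p = 0.0451, edgeR). It no longer passed in 5 of the 6 fits that left out a library, and did so only without replicate 3 of E-L 36. Chalcone synthase (CHS), which builds the flavonoid skeleton, was the most expressed enzyme of this group. VviCHS (VIT_205s0136g00260) had 89.67, 177.86 and 109.78 FPKM at E-L 36, against 149.68, 171.75 and 155.24 at E-L 35, and the stages overlapped (-0.21 ± 0.41 SE, adjusted p = 0.767, edgeR). The chalcone isomerase and flavanone 3-hydroxylase genes (CHI and F3H, 2 each), which act next, had log2 changes of -0.3 to 0.34.

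The B-ring hydroxylases decide the hue, since F3'H (flavonoid 3'-hydroxylase) leads to the redder cyanidin type and F3'5'H, which hydroxylates a further position, to the bluer delphinidin type. Of 8 genes, 1 was downregulated and 0 upregulated, and with p unadjusted and under 0.05 the numbers were 2 and 0, where 17.0% and 18.0% of all genes were. VviF3'H (VIT_209s0002g01090) had 15.66, 20.92 and 18.95 FPKM at E-L 36, against 49.52, 47.34 and 42.64 at E-L 35. Every library of E-L 36 lay far below E-L 35, with a log2 change of -1.2 ± 0.29 SE (adjusted p = 0.00349, edgeR) and -1.3 to -1.09 when single libraries were left out. The level was 25.4 ± 7.13 FPKM at harvest (SD, n = 3).

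The other F3'H gene, VIT_203s0063g01690, had 0.53, 3.75 and 1.51 FPKM at E-L 36, against 4.54, 5.03 and 4.05 at E-L 35. Its stages did not overlap either, but the spread at E-L 36 was wide and the log2 change of -1.08 ± 0.61 SE did not pass (adjusted p = 0.211, edgeR). It passed without replicate 2 of E-L 36 (-2.02, adjusted p = 0.0494, edgeR).

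No F3'5'H gene was called in either direction, and 1 of the 6 was lower at an unadjusted p under 0.05, as were 17.0% of all genes. Their summed level was 9.88, 9.86 and 13.5 FPKM at E-L 36, against 8.29, 12.4 and 11.7 at E-L 35, so the stages overlapped. At harvest the sum was 61.6, 39.3 and 37.7 FPKM, above every library of both earlier stages. All 6 genes carry the stem VIT_206s0009 and had counts that were not whole numbers, so single values are uncertain. VIT_206s0009g02840 and VIT_206s0009g02970 were at 0 in all 3 libraries of E-L 36. At E-L 35 the first had 0.24, 0.0 and 0.48 FPKM and the second 0.0, 0.28 and 0.22, so the stages overlapped. The E-L 35 mean of VIT_206s0009g02840 was 1.38-fold above the floor of 3 counts per library, which sets no limit for single libraries. For VIT_206s0009g02970 the floor allowed no bound. VIT_206s0009g02840 did not pass in the main fit (adjusted p = 0.113, edgeR) and passed with DESeq2 (adjusted p = 0.0306).

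Dihydroflavonol reductase (DFR), the entry to anthocyanins and tannins, was the branch point step with the most downregulated genes. The study annotates 4 genes with this step, more than with any other step of the branches. Of the 4, 3 were downregulated, beside 4.78% of all genes, and 1 without replicate 1 of E-L 36. VIT_215s0048g01010 had 1.5, 1.18 and 1.92 FPKM at E-L 36, against 5.52, 4.35 and 5.65 at E-L 35 (log2 change -1.64 ± 0.22 SE, adjusted p = 5.24e-06, edgeR), and passed whichever library was left out. VIT_216s0039g02350 had 1.86, 4.33 and 2.94 FPKM at E-L 36, against 8.66, 6.73 and 8.5 at E-L 35 (-1.24 ± 0.37 SE, adjusted p = 0.0138, edgeR). It was -0.99 without replicate 1 of E-L 36 (adjusted p = 0.0963, edgeR).

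VIT_215s0048g01000 had 1.08, 1.02 and 2.05 FPKM at E-L 36, against 4.51, 2.93 and 2.83 at E-L 35 (-1.18 ± 0.37 SE, adjusted p = 0.0197, edgeR). It lost the call without replicate 1 of E-L 36 (-1.04), replicate 2 of E-L 36 (-0.99) or replicate 1 of E-L 35 (-0.94). By far the most expressed of the 4 was VIT_218s0001g12800, with 20.53, 35.19 and 32.02 FPKM at E-L 36, against 47.26, 45.25 and 43.0 at E-L 35. The stages did not overlap, yet its log2 change of -0.5 ± 0.21 SE was not past the test (adjusted p = 0.0913, edgeR). The 4 genes together had 35.2 ± 8.97 FPKM at E-L 36, 61.7 ± 3.67 at E-L 35 and 39.4 ± 2.12 at harvest (SD, n = 3 each).

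Of the genes for the last anthocyanin steps, UFGT, 3AT and AOMT, none was downregulated. VviUFGT, the glucosyltransferase that fixes the pigment, had 28.4, 29.94 and 29.24 FPKM at E-L 36, against 18.8, 20.55 and 21.15 at E-L 35. The stages were well apart, and the change passed the test at less than 2-fold (log2 change 0.66 ± 0.17 SE, adjusted p = 0.00503, edgeR). Its level was 65.2 ± 5.07 FPKM at harvest (SD, n = 3). Vvi3AT, the acyltransferase that decorates the sugar, was upregulated, with 1.36, 0.84 and 1.5 FPKM at E-L 36, against 0.38, 0.58 and 0.39 at E-L 35 (1.55 ± 0.39 SE, adjusted p = 0.00627, edgeR). Its libraries held as few as 9 counts, and the call was lost in libraries thinned to the lowest total (0.76, adjusted p = 0.301, edgeR). VviAOMT, the anthocyanin methyltransferase, had 10.55, 13.3 and 8.08 FPKM at E-L 36, against 8.14, 10.88 and 11.47 at E-L 35, which overlapped (0.2, adjusted p = 0.664, edgeR).

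Leucoanthocyanidin dioxygenase (LDOX), shared by anthocyanins and tannins, was not called in either of its 2 genes. VIT_202s0025g04720 had 45.83, 76.16 and 52.36 FPKM at E-L 36, against 71.05, 76.44 and 78.69 at E-L 35 (log2 change -0.25, adjusted p = 0.51, edgeR). VIT_208s0105g00380 had 16.43, 31.09 and 37.29 FPKM at E-L 36, against 46.68, 43.94 and 35.8 at E-L 35 (-0.45, adjusted p = 0.25, edgeR). Both had negative changes, with stages that overlapped. In the tannin branch, VviLAR1 passed the test below 2-fold, with 4.57, 2.81 and 3.47 FPKM at E-L 36, against 2.41, 2.13 and 2.54 at E-L 35 (0.74 ± 0.25 SE, adjusted p = 0.0317, edgeR). LAR1 no longer passed without replicate 1 of E-L 36 (0.55, adjusted p = 0.19, edgeR), replicate 3 of E-L 36, or replicate 1 or 2 of E-L 35. VviLAR2 had 3.09, 9.91 and 6.31 FPKM at E-L 36, against 11.58, 10.57 and 8.75 at E-L 35, with overlap (-0.55, adjusted p = 0.238, edgeR). VviANR, which makes the epicatechin units of tannins, had 0.61, 1.73 and 1.18 FPKM at E-L 36, against 1.8, 2.08 and 2.38 at E-L 35 (-0.7, adjusted p = 0.221, edgeR).

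In the flavonol branch, VviFLS5 passed the test below 2-fold. It had 27.97, 26.26 and 27.79 FPKM at E-L 36, against 14.76, 17.48 and 19.22 at E-L 35 (log2 change 0.8 ± 0.2 SE, adjusted p = 0.00477, edgeR), and 35.7 ± 6.32 at harvest (SD, n = 3). The flavonol synthase gene with the highest level, VIT_211s0118g00390, had 104.23, 82.17 and 103.24 FPKM at E-L 36, against 88.25, 104.88 and 119.34 at E-L 35 (0.01, adjusted p = 0.993, edgeR). VviFLS4 was at 0 in all libraries of E-L 36 and at most 0.16 FPKM at E-L 35, at or under the floor of 3 counts in both stages. Across the 15 genes of these branches, 1 was upregulated and 3, all DFR genes, were downregulated, beside 3.85% and 4.78% of all genes. Their median log2 change was -0.45. Without replicate 1 of E-L 36, 1 was upregulated and 1 downregulated.

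**Figure D3:**
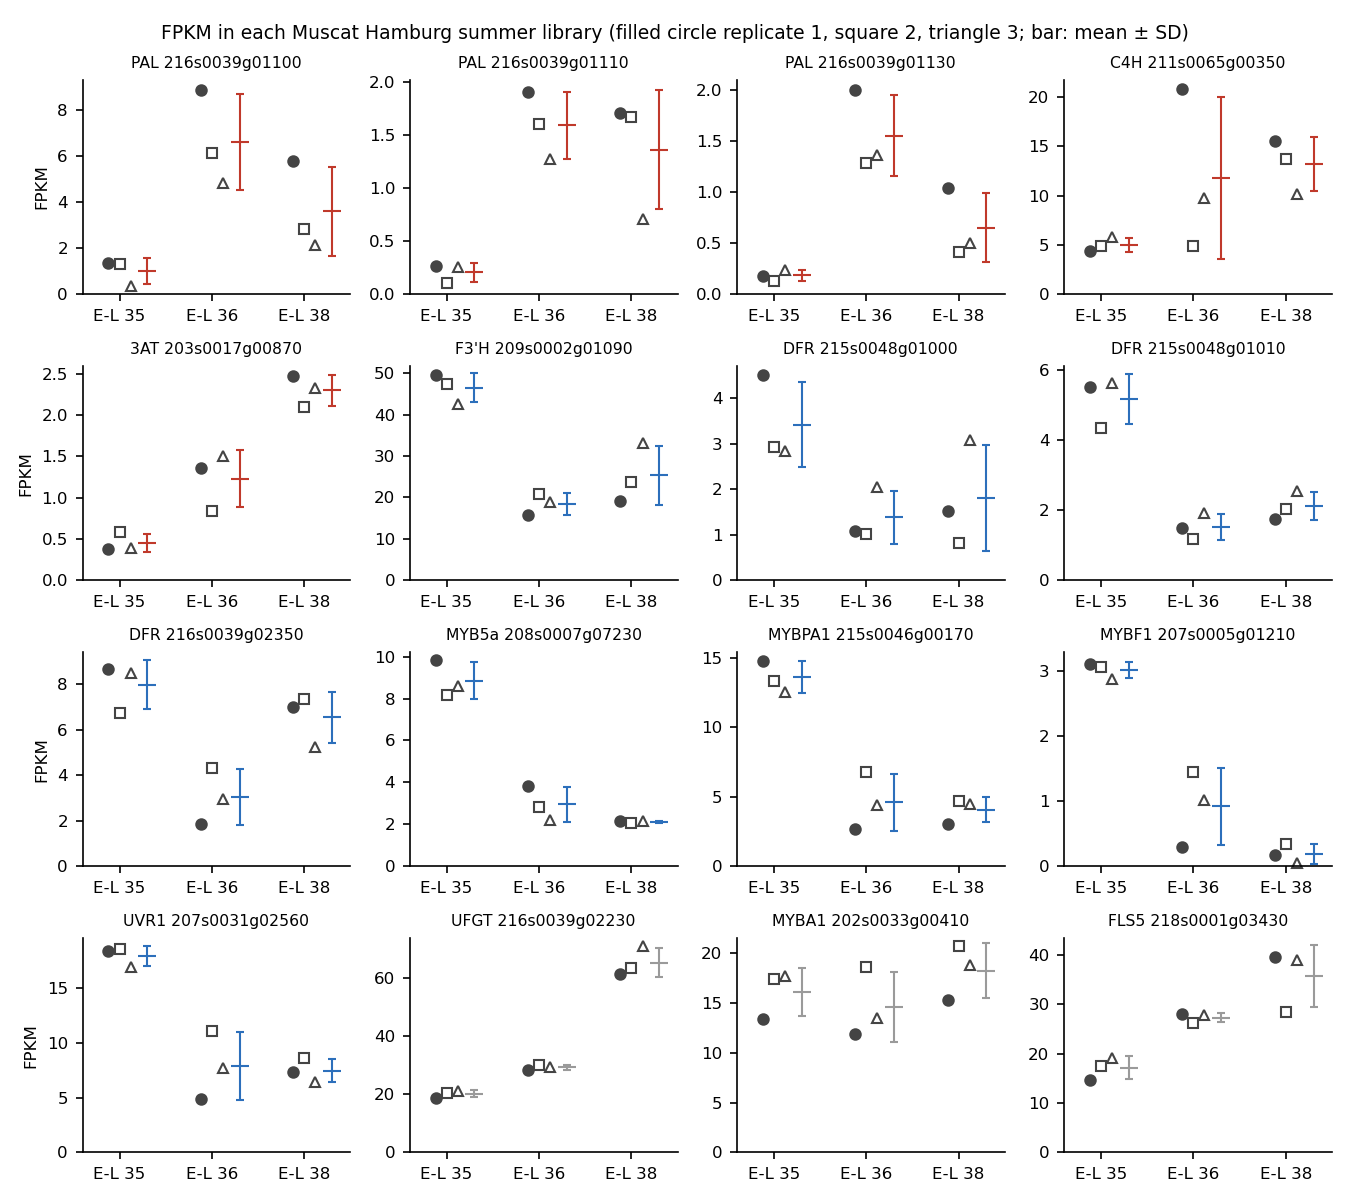
FPKM of the 13 called pathway genes and of UFGT, MYBA1 and FLS5 in each ‘Muscat Hamburg’ summer library, stages running from E-L 35 at the left to harvest at the right, with mean and SD (n = 3) beside the points. In VIT_211s0065g00350 (C4H) the replicates of E-L 36 span 4.85 to 20.89 FPKM, while UFGT lies at 28.4 to 29.94 FPKM in E-L 36 and at 18.8 to 21.15 in E-L 35.

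Of the 18 regulators, 4 were downregulated and 0 upregulated at E-L 36, with a median log2 change of -0.15. With p unadjusted and under 0.05, the higher ones numbered 3 and the lower ones 6, beside 18.0% and 17.0% of all genes. Without replicate 1 of E-L 36, 1 remained downregulated. The 4 genes belong to the tannin branch, the flavonol branch and light perception.

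VviMYB5a, known for activating tannin genes in young berries, had 3.84, 2.84 and 2.2 FPKM at E-L 36, against 9.82, 8.16 and 8.59 at E-L 35. The stages did not overlap (log2 change -1.45 ± 0.28 SE, adjusted p = 0.000451, edgeR), and it passed whichever library was left out. VviMYBPA1, an activator of LAR and ANR, had 2.66, 6.76 and 4.44 FPKM at E-L 36, against 14.8, 13.37 and 12.53 at E-L 35 (-1.42 ± 0.45 SE, adjusted p = 0.0209, edgeR). Its call was lost without replicate 1 of E-L 36 (-1.14), replicate 3 of E-L 36 (-1.37) or replicate 1 of E-L 35 (-1.36). VviMYB5b, the relative of MYB5a that stays on during ripening, passed the test with a small change, at 18.74, 17.19 and 20.2 FPKM at E-L 36, against 15.19, 16.07 and 15.45 at E-L 35 (0.39 ± 0.11 SE, adjusted p = 0.00915, edgeR). The repressor VviMYBC2-L1 had 10.28, 7.89 and 11.18 FPKM at E-L 36, against 13.42, 14.64 and 12.62 at E-L 35 (-0.35, adjusted p = 0.345, edgeR), and the repressor VviMYB4a 19.2, 25.1 and 28.06 FPKM, against 40.25, 38.43 and 40.12 (-0.59, adjusted p = 0.0587, edgeR).

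VviMYBF1, the flavonol activator, had 0.29, 1.45 and 1.02 FPKM at E-L 36, against 3.1, 3.06 and 2.87 at E-L 35. All libraries of E-L 36 were lower, replicate 1 most so (log2 change -1.56 ± 0.42 SE, adjusted p = 0.00774, edgeR), and without that library the value was -1.15 (adjusted p = 0.0667, edgeR). VviUVR1, the receptor for ultraviolet-B light, had 4.9, 11.1 and 7.73 FPKM at E-L 36, against 18.32, 18.54 and 16.88 at E-L 35 (-1.06 ± 0.22 SE, adjusted p = 0.000794, edgeR). Without replicate 1 of E-L 36 it still passed the test but not the fold condition (-0.8, adjusted p = 0.0114, edgeR).

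The light signalling genes downstream of UVR1 moved less. COP1-1, an E3 ubiquitin ligase, passed the test below 2-fold, with 5.33, 4.15 and 4.81 FPKM at E-L 36, against 6.89, 6.67 and 7.91 at E-L 35 (log2 change -0.46 ± 0.1 SE, adjusted p = 0.00132, edgeR). VviHY5, a bZIP factor of light responses, had 10.46, 20.95 and 13.37 FPKM at E-L 36, against 12.13, 11.18 and 12.28 at E-L 35 (0.41, adjusted p = 0.209, edgeR). HYH and COP1-2 of this group, and the bHLH and WD-repeat genes MYCA1, MYC1 and WDR outside it, had log2 changes of -0.02 to 0.33, none past the test. The bZIP factor VvibZIPC22 had 26.41, 8.64 and 11.4 FPKM at E-L 36, against 9.27, 9.0 and 10.41 at E-L 35. It passed the test below 2-fold (0.82, adjusted p = 0.0264, edgeR), but not without replicate 1 of E-L 36 (0.19, adjusted p = 0.638, edgeR) or replicate 1 or 2 of E-L 35.

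The anthocyanin activators of the MYBA locus were not called. VviMYBA1 had 11.85, 18.59 and 13.43 FPKM at E-L 36, against 13.35, 17.34 and 17.63 at E-L 35 (log2 change -0.01 ± 0.28 SE, adjusted p = 0.989, edgeR). VviMYBA2 had 16.62, 39.37 and 28.23 FPKM at E-L 36, against 33.28, 36.91 and 42.04 at E-L 35 (-0.28 ± 0.29 SE, adjusted p = 0.527, edgeR). VviMYBA3 had 6.01, 33.52 and 20.35 FPKM at E-L 36, against 33.22, 37.62 and 34.63 at E-L 35 (-0.68 ± 0.37 SE, adjusted p = 0.189, edgeR). In all 3 the stages overlapped, replicate 1 of E-L 36 was the lowest library, and none of the counts were whole, so single values are uncertain. MYBA3 passed without replicate 2 of E-L 36 (-1.29, adjusted p = 0.0179, edgeR).

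The same step was tested in ‘Victoria’ summer berries and in ‘Muscat Hamburg’ winter berries, which share no library with it. The summer step of ‘Muscat Hamburg’ had fewer calls than either: 1397 genes (7.08%) were upregulated and 1882 (9.54%) downregulated in ‘Victoria’, and 1106 (5.60%) and 1747 (8.85%) in the winter season. Of the 760 genes upregulated in ‘Muscat Hamburg’ in summer, 403 were upregulated in ‘Victoria’, which is 53% of the first list and 28.8% of the second, and 16 were downregulated there. Of the 943 downregulated genes 449 were shared (47.6% and 23.9%), and 9 went up in ‘Victoria’. With the winter season, 159 upregulated genes were shared (20.9% and 14.4%) and 330 downregulated ones (35% and 18.9%). The opposite call was found for 57 of the 760 and 60 of the 943.

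Without replicate 1 of ‘Victoria’ E-L 36, 1525 genes (7.56%) were upregulated and 2119 (10.5%) downregulated in ‘Victoria’, of 20167 tested. Of the 760, 377 were then shared (49.6% and 24.7%), and of the 943, 424 (45% and 20%), with the opposite call for 18 and 10.

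The difference between the steps was tested gene by gene in the same model. A positive difference means that the log2 change was the higher one in ‘Muscat Hamburg’ summer berries, by a stronger increase or a weaker decrease, and a negative one that it was the lower. The log2 change in ‘Muscat Hamburg’ minus that in ‘Victoria’ was positive for 567 genes (2.87%) and negative for 536 (2.72%). Summer minus winter was positive for 1324 genes (6.71%) and negative for 965 (4.89%). The count against ‘Victoria’ depended on a library, since without replicate 1 of ‘Victoria’ E-L 36 it was 895 and 754. A fit to the 12 libraries concerned alone gave 269 and 309.

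Replicate 1 of E-L 36 also differed in how far it had moved. On the 1397 genes that were higher at E-L 36 in ‘Victoria’, the libraries of E-L 36 lay 1.01, 0.41 and 0.47 above the E-L 35 mean (median log2 difference), and those of harvest 0.63 to 0.79. On the 1882 genes lower there they lay at -0.9, -0.58 and -0.54, against -0.69 to -0.62 at harvest. Replicate 1 lay beyond the harvest libraries on both sets, and replicates 2 and 3 short of them. With the genes called without replicate 1 of ‘Victoria’ E-L 36, the values were 0.85, 0.4 and 0.39, with 0.5 to 0.62 at harvest, and -0.7, -0.51 and -0.41, with -0.5 to -0.43 at harvest, so that on the lower set replicate 2 also lay just past them. On the 1106 and 1747 genes of the winter step, the values of the E-L 36 libraries were 0.3, -0.02 and 0.12, with 0.23 to 0.3 at harvest, and -0.77, -0.28 and -0.33, with -0.61 to -0.54 at harvest. There replicate 1 lay within the harvest range on the higher set and beyond it on the lower.

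**Figure D4:**
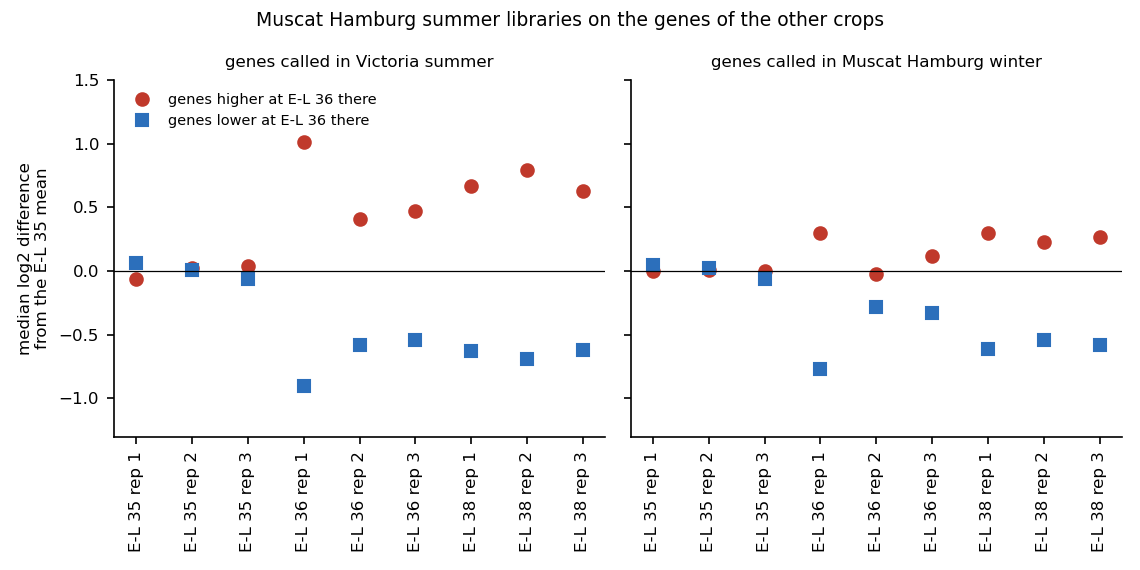
Median log2 difference of each ‘Muscat Hamburg’ summer library from the E-L 35 mean, over genes called for this step in ‘Victoria’ summer (left) and ‘Muscat Hamburg’ winter berries (right). Replicate 1 of E-L 36 stands at 1.01 and -0.9 in the left panel, beyond replicates 2 and 3 and the harvest libraries.

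Within the pathway, the difference of the log2 change, ‘Muscat Hamburg’ minus ‘Victoria’, was positive for 1 of the 64 genes and negative for 8, beside 2.87% and 2.72% of all genes. The upstream genes held 4 of the 8. Their median log2 change was 0.72 in ‘Muscat Hamburg’, with 4 of 23 upregulated, and 1.73 in ‘Victoria’, with 15 upregulated, where 7.08% of all genes were. Without replicate 1 of ‘Victoria’ E-L 36 the median in ‘Victoria’ was 2.16, with 14 upregulated. VviPAL (VIT_213s0019g04460) had 10.15 to 15.49 FPKM at E-L 36 and 12.77 to 14.92 at E-L 35 in ‘Muscat Hamburg’, against 2.98 to 4.66 and 0.59 to 1.41 in ‘Victoria’. The difference of its log2 change was -2.13 ± 0.42 SE (adjusted p = 0.00125, edgeR).

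MYBA2 and MYBA3 differed most. The log2 change of MYBA2 was -0.28 in ‘Muscat Hamburg’ and 3.54 in ‘Victoria’, a difference of -3.82 ± 0.45 SE (adjusted p = 6.09e-06, edgeR). In ‘Victoria’ its FPKM was 18.58 to 43.85 at E-L 36 and 2.64 to 3.63 at E-L 35. At E-L 36 both varieties thus covered a like range of FPKM, while at E-L 35 the ‘Muscat Hamburg’ libraries stood at 33.28 to 42.04. For MYBA3 the difference was -3.56 ± 0.63 SE (adjusted p = 0.000406, edgeR).

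The DFR gene VIT_215s0048g01000 also differed, with -1.18 in ‘Muscat Hamburg’ and 0.84 in ‘Victoria’ (difference -2.02 ± 0.44 SE, adjusted p = 0.00296, edgeR), as did F3'H VIT_209s0002g01090 (-1.33, adjusted p = 0.0311, edgeR). In the other direction, LAR1 changed by 0.74 in ‘Muscat Hamburg’ and -0.55 in ‘Victoria’ (difference 1.29 ± 0.35 SE, adjusted p = 0.0137, edgeR, and 0.052 in the fit to the 12 libraries alone). The F3'H difference was lost without replicate 1 or 2 of E-L 35 or replicate 1 or 3 of E-L 36 in ‘Muscat Hamburg’, and without replicate 2 or 3 of either stage in ‘Victoria’, with the smallest size, -0.83, without replicate 3 of ‘Victoria’ E-L 36.

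Set against the winter season of the same variety, 7 of the 64 genes had a positive difference of the log2 change, summer minus winter, and 7 a negative one. Over all genes tested the shares were 6.71% and 4.89%. The structural genes were picked for season differences in these same samples, so these counts are not independent of that pick. DFR VIT_215s0048g01000 was downregulated in summer and upregulated in winter, where it had 32.94 to 42.85 FPKM at E-L 36 and 10.31 to 11.03 at E-L 35. Its difference was -3.1 ± 0.45 SE (adjusted p = 1.34e-05, edgeR). VIT_215s0048g01010 (-1.92, adjusted p = 2.62e-05), F3'H VIT_209s0002g01090 (-1.78, adjusted p = 0.00214) and MYB5a (-1.85, adjusted p = 0.000989) were likewise downregulated in summer and not called in winter (edgeR).

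Among the genes with a positive difference were UFGT, ANR, HY5 and MYBPA1. UFGT changed by 0.66 in summer and -0.68 in winter (difference 1.34 ± 0.24 SE, adjusted p = 0.000152, edgeR). The winter libraries of UFGT held 30.42 to 49.59 FPKM at E-L 36 and 70.65 to 74.96 at E-L 35. ANR changed by -0.7 in summer and -2.77 in winter (difference 2.07, adjusted p = 0.00815, edgeR), and HY5 by 0.41 and -1.26 (difference 1.68, adjusted p = 0.00102, edgeR). MYBPA1 was downregulated in both, by more in winter (-1.42 in summer and -3.39 in winter, adjusted p of the difference 0.0331, edgeR), but this difference was lost in 8 of 12 fits that left out a library, with 1.57 without replicate 2 of summer E-L 36. Season, pruning date and berry age came together in this contrast and cannot be told apart.

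**Figure D5:**
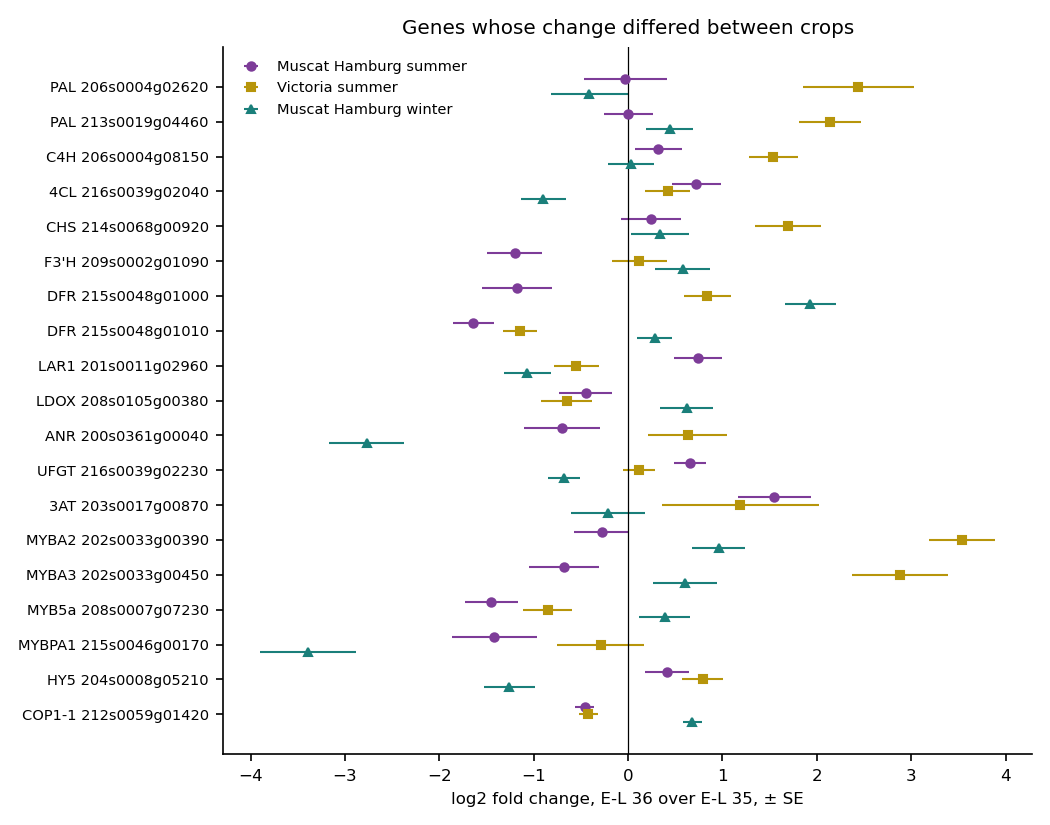
The log2 change of E-L 36 over E-L 35 with its standard error in ‘Muscat Hamburg’ summer (circles), ‘Victoria’ summer (squares) and ‘Muscat Hamburg’ winter berries (triangles), for the 19 pathway genes whose change differed from at least 1 of the other crops. MYBA2 stands at -0.28, 3.54 and 0.96, and UFGT at 0.66, 0.12 and -0.68.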

How the data were processed

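RNA was read by the authors as 50-bp single reads on an Illumina HiSeq instrument and aligned to the grapevine reference genome with at most 2 mismatches. Bowtie is named in the submitters' processing notes, and the program that counted reads is not given in the sources used here. The files deposited per library give expected counts (estimated counts that need not be whole) and FPKM for each transcript set, the FPKM computed by the authors from the longest transcript of a gene. A table of the whole series with 36 value columns was not used, since its column names match no sample.

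Expected counts were rounded and tested with edgeR 4.0.16 (R 4.3.3; quasi-likelihood test, filterByExpr over the 12 groups, TMM scaling, 36 libraries in 1 model, 24 residual degrees of freedom). Of 28119 identifiers, 19736 passed the filter on low counts. P-values were adjusted over all of them by Benjamini-Hochberg, and standard errors were derived from the F statistic. Calls needed a change of 2-fold or more with an adjusted p no higher than 0.05. FPKM served for levels, for whether stages overlapped, for picking the largest changes and for the limma alternatives. It was not scaled by TMM and leaned lower at E-L 36. Of all tested genes, 28.9% had every E-L 36 library below E-L 35 and 12.2% above. Standard errors and SDs include the spread between replicates, while floors (3 counts per library) cover counting error only. An exact permutation test of 3 libraries against 3 cannot go below p = 0.1 and was not used.

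Alternatives were DESeq2 1.42.0, limma 3.58.1 on log2 FPKM with pseudocounts of 1 and 0.1, other scalings, filters and thresholds, thinning, a replicate block and leaving out single libraries. A limma-voom fit with sample weights and the omission of ‘Victoria’ and winter libraries were chosen after seeing the data. For the change between the stages, edgeR, DESeq2 and limma with a pseudocount of 1 were tried on simulated data first. The differences between steps, the replicate block, limma with a pseudocount of 0.1 and the limma-voom fit were not. Members, gene lists and comparisons were chosen with earlier results of these data known. The genes named are the 64 pathway genes and, because 0 of the identifiers matched the reference table of gene names, 2 upregulated and 2 downregulated identifiers with the largest changes under the conditions given above. Marker lists of seed, vascular and green tissue could not be matched, and no sequence is shown.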

Additional observations from a re-analysis of the deposited data

Results flagged for a closer look

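The changes below differed between ‘Muscat Hamburg’ in summer and another crop by a test of the difference itself, at an adjusted p of at most 0.05 (edgeR) and at least 2-fold, and are given as differences of log2 fold changes.

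Against ‘Victoria’ in summer, the difference was -2.48 for PAL VIT_206s0004g02620, -2.13 for PAL VIT_213s0019g04460, -1.21 for C4H VIT_206s0004g08150, -1.45 for CHS VIT_214s0068g00920 and -1.33 for F3'H VIT_209s0002g01090. It was -2.02 for DFR VIT_215s0048g01000, 1.29 for LAR1, -3.82 for MYBA2 and -3.56 for MYBA3.

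Against the winter season of ‘Muscat Hamburg’, the difference was 1.62 for 4CL VIT_216s0039g02040, -1.78 for F3'H VIT_209s0002g01090, -3.1 for DFR VIT_215s0048g01000, -1.92 for DFR VIT_215s0048g01010, 1.81 for LAR1, -1.07 for LDOX VIT_208s0105g00380 and 2.07 for ANR. It was 1.34 for UFGT, 1.76 for 3AT, -1.25 for MYBA2, -1.85 for MYB5a, 1.97 for MYBPA1, 1.68 for HY5 and -1.14 for COP1-1.

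With each of the 12 libraries of a difference left out in turn, the call against ‘Victoria’ was lost in 9 fits for CHS (-2.21 to -1.05), 8 for F3'H (-1.78 to -0.83), 4 for PAL VIT_206s0004g02620 (-3.15 to -1.51) and 3 for C4H (-1.47 to -1.0). Against winter it was lost in 10 fits for LDOX (-1.3 to -0.8), 8 for MYBPA1 (1.57 to 2.24), 5 for 3AT (1.59 to 2.0) and 4 for MYBA2 (-1.59 to -0.98). The calls of the other genes named here held in all 12.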

How the results depend on the processing

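The 760 upregulated and 943 downregulated genes became 2379 and 2195 without the fold condition, and 315 and 401 with a replicate block, which the numbers do not warrant: deviations of libraries with the same number correlated by -0.068, -0.014 and -0.038. The upregulated genes were 477 and 342 with limma on log2(FPKM + 0.1) and log2(FPKM + 1), and the downregulated ones 589 with limma on log2(FPKM + 1), 492 with at least 10 counts in every library compared and 605 at an adjusted p of at most 0.01. Leaving out single libraries gave 473 to 917 upregulated and 646 to 1028 downregulated genes, the lowest without replicate 1 of E-L 36. The cause was not tested.

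The difference from ‘Victoria’ (567 positive, 536 negative) was 269 and 309 with only the libraries compared, 165 and 195 with the replicate block, 1513 and 1355 with limma-voom weights, 1115 and 1543 without the fold condition and 263 and 286 at an adjusted p of at most 0.01, with 353 negative under limma on log2(FPKM + 1). Leaving out single libraries gave 398 to 895 and 421 to 754. The difference from winter (1324 positive, 965 negative) was 2363 and 2099 without the fold condition and 846 and 631 at an adjusted p of at most 0.01, with 855 positive under limma on log2(FPKM + 1) and 1522 negative with limma-voom weights. No called value of a pathway gene changed sign under any alternative that was run. The E-L 36 libraries are the shallower ones, which limits calls among low genes, and thinning every library to the lowest total of the series gave 662 and 799 genes.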

Other observations

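Some called genes sat next to each other by identifier. In the stem VIT_211s0052, 8 of 10 consecutive tested identifiers were upregulated at E-L 36, with log2 fold changes of 2.13 to 4.13, and all 8 were also called without replicate 1 of E-L 36. Of these, 7 were upregulated in ‘Victoria’ summer berries and 0 in ‘Muscat Hamburg’ winter berries by the same test, in which 7.08% and 5.60% of all genes were. Their counts were not whole numbers (median 6 of 6 libraries), so single values are uncertain. Among downregulated genes, 6 of 10 neighbours were called in each of the stems VIT_200s0187 and VIT_206s0004. These runs were found by searching all identifiers and were not tested.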
